A study of Arabidopsis thaliana with 4 samples.

Results

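The chloroplast genome of Arabidopsis thaliana was represented on the array by 75 probes for 66 loci, out of 43603 gene probes in all. Members were taken by locus identifier: every gene probe whose systematic name begins with ATCG and 5 digits, with the probe of the highest mean intensity kept for each locus. The measurements come from 4 Agilent 2-colour arrays hybridised with RNA of untreated whole plants, 21 d old, of the Col-0 background. Of these, 2 arrays set the 35S:VuDREB2A (full length) line against wild type Col-0, and 2 set the 35S:VuDREB2A (truncated) line against wild type Col-0. In each line the RNA of the transgenic plants was labelled with Cy3 in replicate 1 and with Cy5 in replicate 2.

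VuDREB2A comes from cowpea and belongs to the DREB2 transcription factors, known for binding dehydration-responsive elements of nuclear stress genes. The 35S promoter comes from a plant virus and is active in most tissues. As far as the labels state, 1 line stands for each construct, so a construct cannot be told apart from its line. All plants, wild type included, grew on vertical agar plates with 1% sucrose at 25 °C under 12 h of light per day. Only 2 replicates of wild type are counted in the design text. Both lines may thus have been set against the same wild type RNA, and their ratios are given side by side and not correlated. No probe is named for the cowpea transgene, and its level was not measured. Nothing in the labels says that replicates came from separate cultures, so p-values measure the spread between arrays, dye effects included.

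Chloroplasts keep a small genome of bacterial origin. It encodes core subunits of both photosystems, the cytochrome b6f complex, the ATP synthase and an NADH dehydrogenase-like complex, the large subunit of Rubisco, part of the plastid ribosome and the core of a bacterial-type RNA polymerase. The other subunits, the sigma factors, a phage-type polymerase and most RNA-processing proteins are encoded in the nucleus, so each complex draws on transcripts of both genomes. Mature plastid transcripts mostly lack the long stable poly(A) tails of nuclear mRNA, and in plastids added A-rich tails mark RNA for decay. The labelling kit named in the labels primes with oligo(dT), so plastid RNA enters such a measurement by another route than nuclear mRNA does, and a ratio cannot be read as a ratio of mature plastid mRNA. In whole plants, less green tissue and less plastid RNA per cell cannot be told apart either.

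The files and the gene table used here do not pair ATCG identifiers with gene symbols (0 of 66 matched), so no locus is given a name or a role, and only single identifiers are printed. All 75 probes were well above background in both channels of all 4 arrays, and none was saturated or marked as an outlier. Over the whole array that held for 65.4% to 72.4% of gene probes, depending on the channel. The raw spot signal of the 66 loci ran from 903 to 309936 over all channels, with medians of 22324 to 39384 in the 4 line channels and 27213 to 38248 in the 4 wild type channels. All 66 loci were therefore tested, and no filter on dim probes chose among them.

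Chloroplast transcripts were raised in the full-length line. Of the 66 loci 32 rose and 0 fell (limma, adjusted p threshold 0.05), and 34 did not pass. Over all 22442 features tested 9.41% were called higher and 6.13% lower, 15.5% in all. The median log2 ratio of line over wild type was 0.42 over the 66 loci, a 1.33-fold level, against 0.0094 over all features. At an unadjusted p under 0.05, 49 loci passed, 0 of them as lower, where 7467 of all 22442 features passed in either direction. Replicate 1 had a median of 0.34 and replicate 2 of 0.39, a difference of the array centres smaller than the shift itself. The ratio was above 0 on both arrays for 58 loci, below 0 on both for 1, and of opposite sign for 7, whereas 37.4% of all features were above 0 on both arrays.

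The rises in the full-length line were modest in size. The middle of the distribution lay between 0.20 and 0.55 (quartiles of the 66 mean log2 ratios), 19 loci exceeded 0.5, and 0 exceeded 1. The loci called higher had mean log2 ratios from 0.31 to 0.84. The SD over the 2 arrays had a median of 0.11 for these 66 loci and of 0.087 for all features. Leaving out replicate 1 or replicate 2 of the full-length line left 29 or 22 loci called higher, while the share over all features went to 5.42% or 4.93%.

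The truncated line showed the same direction. Of the 66 loci 36 rose and 0 fell (limma), while 7.09% of all features were called higher and 6.15% lower, 13.2% in all. The median log2 ratio was 0.36, a 1.28-fold level, against 0.0049 over all features. At an unadjusted p under 0.05, 47 loci passed, 0 of them as lower, where 6937 of all 22442 features passed in either direction. The median was 0.39 on replicate 1 and 0.40 on replicate 2. The ratio was above 0 on both arrays for 58 loci, below 0 on both for 0, and of opposite sign for 8, against 35.3% of all features above 0 on both arrays. Quartiles were 0.27 and 0.51, 18 loci exceeded 0.5, 0 exceeded 1, and the called loci ranged from 0.27 to 0.86. Without truncated replicate 1 only 18 loci passed, at a median of 0.40, and without replicate 2 it was 24, at a median of 0.39. The shares over all features were then 3.27% and 3.49%.

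**Figure D1:**
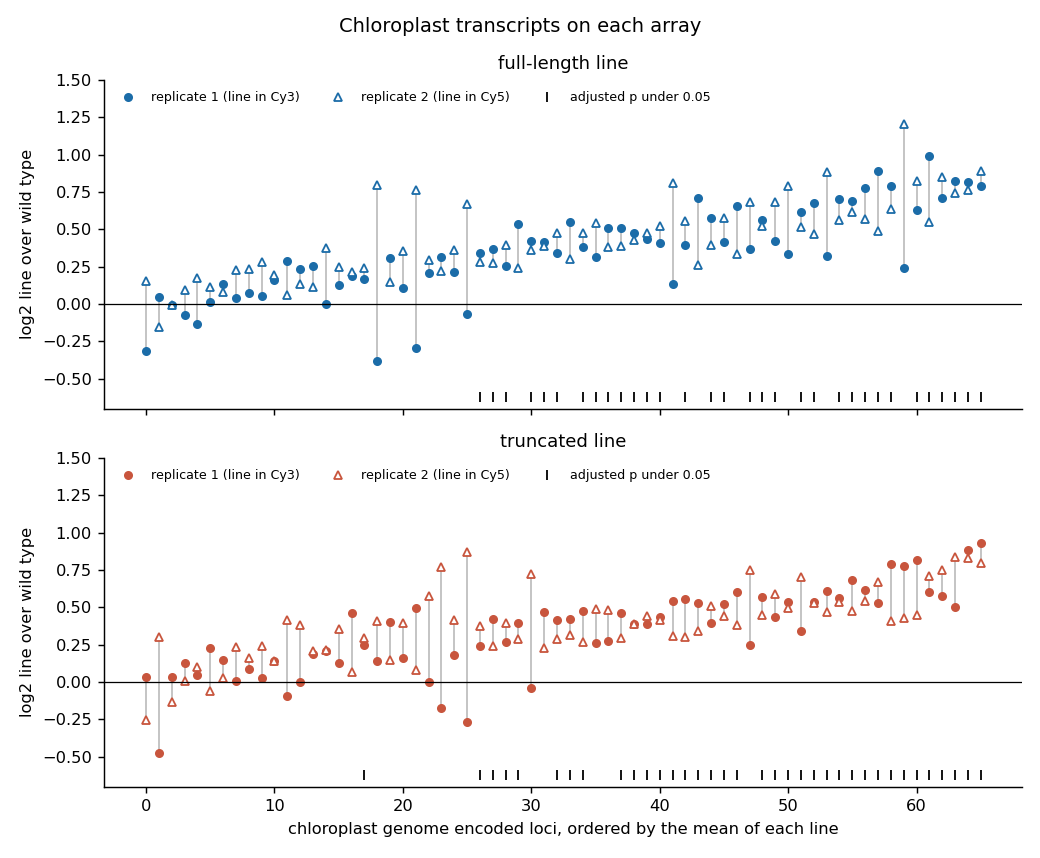
Log2 ratio of line over wild type for the 66 chloroplast loci on each array, ordered within each line by the mean. Filled circles are replicate 1 (line in Cy3), open triangles replicate 2 (line in Cy5), grey bars join the arrays of a locus, and ticks mark loci with an adjusted p under 0.05 (32 full-length, 36 truncated). Most loci lie above 0 on both arrays, and a few differ widely between the dye orientations.

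The highest mean ratios in both lines belonged to ATCG00180 and ATCG00170. ATCG00180 had log2 ratios of 0.79 and 0.89 on the full-length arrays and 0.88 and 0.83 on the truncated arrays. It was 1.79-fold higher in the full-length line (0.84 ± 0.07, SD, n = 2; limma adjusted p = 0.00377) and 1.81-fold higher in the truncated line (0.86 ± 0.03; limma adjusted p = 0.00385). ATCG00170 had 0.82 and 0.77 on the full-length arrays and 0.93 and 0.80 on the truncated arrays. For both loci the 4 arrays lay close together and far above 0.

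At the other end, 3 loci had a mean log2 ratio below 0 in each line, and none of these passed. ATCG00580 had -0.0082 and -0.0045 on the full-length arrays, and 0.03 and -0.14 on the truncated arrays (limma adjusted p = 0.96 and 0.645). ATCG00650 had 0.05 and -0.15 on the full-length arrays, and 0.03 and -0.26 on the truncated arrays, a mean of -0.05 ± 0.14 and -0.11 ± 0.20. ATCG00580 had a mean log2 intensity of 15.5, above the median of 15.0 over the 66 loci, so the shift was not seen at every bright chloroplast probe.

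How many chloroplast loci were called different between the lines depended on whether the fit had a term for the replicate number. Without a term for it, the contrast truncated minus full-length passed for 0 of 66 loci (limma, smallest adjusted p = 0.0918). Over all features 3.11% passed (0.971% higher and 2.14% lower). An unadjusted p under 0.05 was reached by 6 of the 66 loci and by 4591 of all 22442 features, a larger share. With the replicate number as a block, 23 loci passed (10 higher and 13 lower in truncated minus full-length), where 39.1% of all features did. The share of the 66 loci was below that of all features, so these calls do not set chloroplast loci apart. Replicate number is the dye orientation and may also be a shared wild type RNA, and these cannot be told apart. The difference of log2 ratios ranged from -0.39 to 0.35 with a median of -0.045, and it was above 0 for 28 loci. Without the block, its 95% interval had a median half-width of 0.27 and reached beyond 0.5 in size for 21 loci. For the locus with the largest positive difference, the log2 ratios were 0.26 and 0.11 on the full-length arrays and 0.61 and 0.47 on the truncated arrays, a difference of 0.35 (95% interval 0.10 to 0.61). The lines did not overlap for it, and without the block it missed the threshold over all features (limma adjusted p = 0.14).

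**Figure D2:**
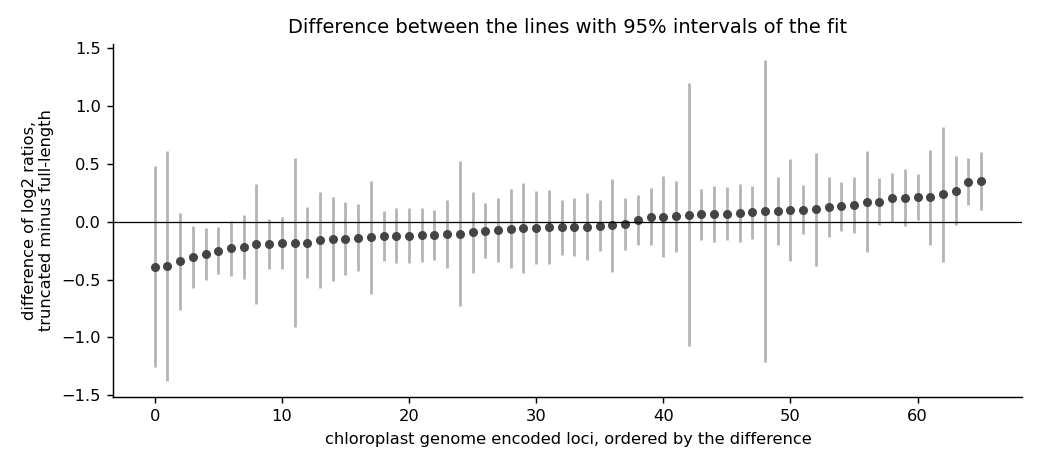
Difference of log2 ratios, truncated minus full-length, for each of the 66 chloroplast loci, with 95% intervals from the fit without a block for replicate number. Points run from -0.39 to 0.35 around a median of -0.045, and none passed the adjusted threshold in that fit.

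Agreement between arrays depended on brightness. Among the 19 loci with a mean log2 intensity of 16 or more, replicate 1 lay below replicate 2 for 18 in each line, with median log2 ratios of 0.32 and 0.67 on the full-length arrays and 0.18 and 0.49 on the truncated arrays. Of these 19, the arrays had opposite signs for 4 loci of the full-length and 5 of the truncated line. The widest spread was at the probe used for ATCG00020, with -0.38 and 0.79 on the full-length arrays and -0.27 and 0.87 on the truncated arrays. The means of that probe, 0.21 ± 0.83 and 0.30 ± 0.80, thus say little. The other probe of this locus, with a mean log2 intensity of 17.1, had 0.27 and 0.62 (full-length) and 0.27 and 0.61 (truncated). In the 27 loci from 14 to 16 the median difference of replicate 2 minus replicate 1 was -0.05 and -0.12 in the full-length and truncated line, and in the 20 loci under 14 it was -0.08 and -0.11.

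The mean over both dye orientations depended less on brightness. Its median in the full-length line was 0.42 for the loci under 14, 0.40 from 14 to 16, and 0.43 at 16 or more. In the truncated line the medians were 0.34, 0.39 and 0.30. Across the 66 loci, which share arrays and the normalization curve, mean log2 intensity and mean ratio had a Pearson r of -0.11 (full-length) and -0.15 (truncated), given as a description only.

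**Figure D3:**
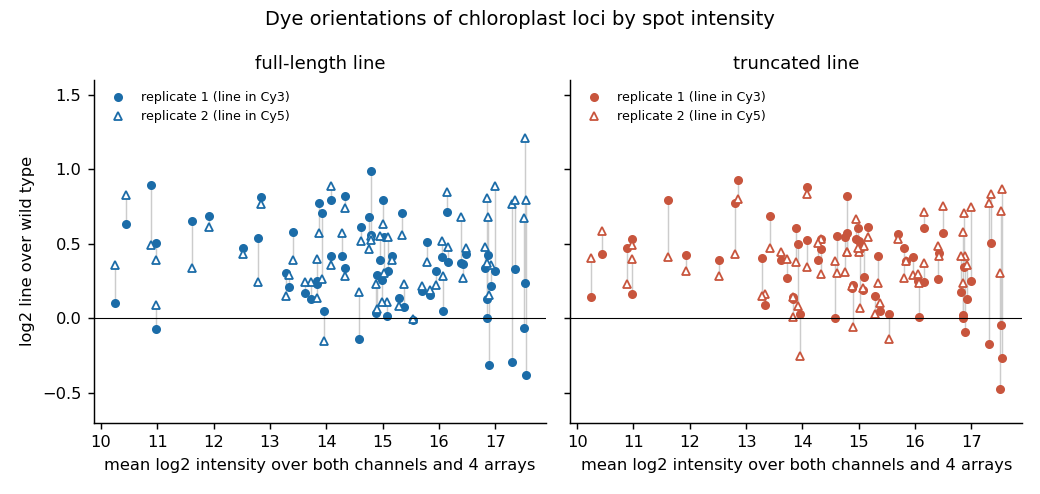
Log2 ratio of line over wild type against mean log2 intensity for the 66 chloroplast loci, with replicate 1 (line in Cy3) as filled circles and replicate 2 (line in Cy5) as open triangles. The orientations separate at 16 or more, where replicate 1 lies below replicate 2 for 18 of 19 loci in each line.

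For 7 loci the array held more than 1 probe, 16 probes in all. The 9 probes that were not used had mean log2 ratios from -0.11 to 0.67 in the full-length line (median 0.42, 8 above 0) and from 0.07 to 0.61 in the truncated line (median 0.44, 9 above 0). Within a locus the probes differed by 0.03 to 0.25 (full-length) and by 0.01 to 0.17 (truncated). The widest ranges in the full-length line, 0.22 to 0.25 at 3 of the 7 loci, were more than 0.5 times the median shift of 0.42.

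Transcripts of the mitochondrial genome, the other organelle genome on the array, were higher too. Of 67 mitochondrial loci 53 passed the filter on dim probes, so the counts leave out the dimmest. In the full-length line 26 of the 53 rose and 0 fell (limma), beside 9.41% of all features called higher, with a median log2 ratio of 0.34. The unadjusted p was under 0.05 for 38 of them, and for 7467 of all 22442 features. In the truncated line 18 rose and 0 fell, beside 7.09%, with a median of 0.26. The unadjusted p was under 0.05 for 34 of the 53 there, and for 6937 of all features. With no filter on dim probes 15 and 5 passed, at medians of 0.24 and 0.16, beside 2.07% and 1.04% of all features called higher. With median centring 0 passed in either line, beside 0.0356% and 0.111% of all features called higher. With outlier-marked spots kept 16 passed in the full-length line, beside 2.52% of all features called higher. Fewer also passed in the full-length line without its replicate 2, and in the truncated line without its replicate 2. The shift was thus not a feature of chloroplast loci alone, and the difference between both organelles was not tested. Mitochondrial loci were dimmer, with a median log2 intensity of 9.37 against 15.0. Between the lines 2 of the 53 mitochondrial loci differed, both lower in the truncated line, beside 3.11% of all features (2.14% lower). Such a count is near the background.

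Of nuclear genes for subunits of the same photosynthetic complexes, none was called higher. Of the 41 named, 40 were tested. In the full-length line 0 rose and 8 fell (limma), with a median log2 ratio of -0.18. Over all features 9.41% were called higher and 6.13% lower. An unadjusted p under 0.05 was reached by 15 of the 40 and by 7467 of all 22442 features, so that count is near the background. Without full-length replicate 1 only 2 fell, and when dim probes were kept it was also 2. Median centring left 0, where only 8 of all 22442 features were called in either direction. Taking the median over the probes of a locus gave 14, where 3848 features were called, 2167 of them higher. The falls included the photosystem I subunit genes PSAH2 (-0.60 and -0.41 on replicates 1 and 2, mean -0.51 ± 0.14), PSAD-2 (-0.46 and -0.52) and PSAL (-0.55 and -0.39). PSAH2 and PSAL did not pass without full-length replicate 1 (limma adjusted p = 0.0686 and 0.0908). In the truncated line 0 rose and 2 fell, a share of the list below the 6.15% over all features, namely PSAD-2 (-0.25 and -0.34) and PSAG (-0.24 and -0.30), with a list median of -0.086, and 0 passed there without either truncated replicate, with the scanner software's log ratios or with the authors' deposited table. These genes had a median log2 intensity of 16.2 against 15.0 for the chloroplast loci. Of 10 light-harvesting antenna genes 0 rose in either line, beside 9.41% (full-length) and 7.09% (truncated) of all features called higher. A list of 10 is too short to read that as a result. With the full-length construct LHCA2 and LHCB4.1 fell (-0.34 ± 0.08 and -0.24 ± 0.04), beside 6.13% of all features called lower, though both calls needed both arrays. Neither passed with outlier-marked spots kept (limma adjusted p = 0.0623 and 0.112) or with median centring.

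Within each array, the chloroplast median lay above the median of the nuclear photosynthesis genes. The gap was 0.72 and 0.49 on the full-length arrays and 0.63 and 0.44 on the truncated arrays. On replicate 1 of each line all 40 nuclear genes lay below the chloroplast median, and on replicate 2 it was 39 of 40 (full-length) and 34 of 40 (truncated). Between the line medians the gap was 0.60 for the full-length and 0.45 for the truncated line, and under the settings tried, single arrays left out included, it ran from 0.49 to 0.72 and from 0.44 to 0.63.

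**Figure D4:**
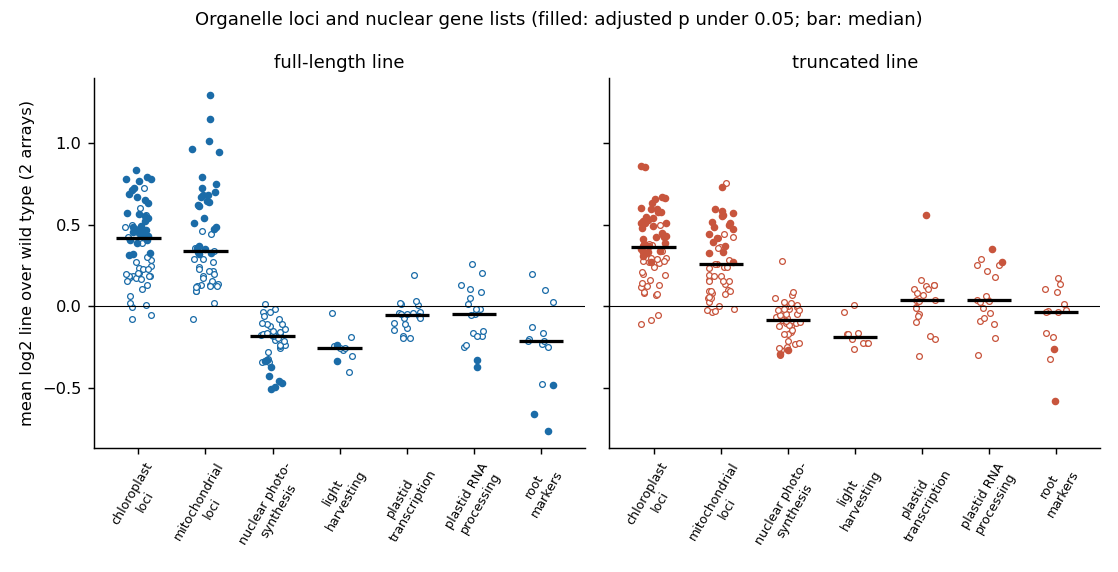
Mean log2 ratio of line over wild type for chloroplast loci, mitochondrial loci and nuclear gene lists, 1 point per locus. Filled points passed the adjusted threshold and bars are medians. Chloroplast (0.42 and 0.36) and mitochondrial medians (0.34 and 0.26) lie above 0 in both lines, and nuclear photosynthesis genes below (-0.18 and -0.086).

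Of nuclear genes that serve plastid transcription, including the sigma factors and the subunits of the polymerase-associated complex, 20 were tested. In the full-length line 0 rose and 0 fell (limma), beside 9.41% of all features called higher and 6.13% lower. A list of 20 is too short to read that as a result. The unadjusted p was under 0.05 for 3 of them, and for 7467 of all 22442 features. In the truncated line 1 rose (5% of the list, beside 7.09% of all features), SCA3, which encodes the phage-type plastid RNA polymerase. Its log2 ratios were -0.27 and 0.20 on the full-length arrays and 0.47 and 0.66 on the truncated arrays (mean 0.56 ± 0.13; limma adjusted p = 0.0462). The call was lost with no background correction (limma adjusted p = 0.0677), and also without truncated replicate 2. The SCA3 probe was dim, with a mean log2 intensity of 8.57 against a median of 9.13 over all features. The difference of SCA3 between the lines did not pass (limma adjusted p = 0.151).

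Among 19 tested genes for plastid RNA processing and stability, 2 fell with the full-length and 2 rose with the truncated construct, a share of 10.5% each, beside 6.13% of all features called lower and 7.09% called higher in these lines. Such counts are near the background. The falls were RBP31, a chloroplast RNA-binding protein gene (-0.37 ± 0.04), and PGR3, a pentatricopeptide repeat protein gene needed for certain plastid transcripts (-0.33 ± 0.0033). The rises were MRL1 (0.35 ± 0.03), known to be needed for the Rubisco large subunit transcript, and RNEE/G, a plastid endoribonuclease gene (0.27 ± 0.04). None of these 4 genes passed in both lines, and the calls of RBP31, PGR3 and MRL1 needed both arrays of their line. PGR3 also did not pass with outlier-marked spots kept (limma adjusted p = 0.129), and neither fall passed with median centring. The call of RNEE/G (limma adjusted p = 0.0453) was not checked with single arrays left out.

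Of 14 root markers tested, 0 rose, 11 did not pass and 3 fell with the full-length construct (limma). Over all features 9.41% were called higher and 6.13% lower there, and a list of 14 allows little comparison with these shares. The falls were the aquaporin genes TIP2;3 (-0.76 ± 0.25), TIP4;1 (-0.66 ± 0.02) and PIP2;4 (-0.48 ± 0.02), with a list median of -0.21 and a range of -0.76 to 0.20. In the truncated line 0 rose and 2 fell, beside 7.09% of all features called higher and 6.15% lower. The list median was -0.032, with a range of -0.58 to 0.17, and the falls were TIP4;1 (-0.26 ± 0.0045) and MRN1 (-0.58 ± 0.28). Without truncated replicate 2 neither of these passed (limma adjusted p = 0.229 and 0.100). TIP4;1 in the truncated line also did not pass with outlier-marked spots kept (limma adjusted p = 0.096). The chloroplast median was similar in both lines while the root marker medians were -0.21 and -0.032. The part of tissue proportions in the chloroplast shift was not tested.

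The size and the calls of the chloroplast shift rested on the intensity-dependent normalization. With each array centred on its median in place of loess, the median log2 ratio was 0.062 (full-length) and 0.22 (truncated). Of the 66 loci 38 and 56 were above 0. In either line 0 loci passed, where only 8 and 41 of all 22442 features were called. So few calls over the array leave that 0 near the background. An unadjusted p under 0.05 was reached by 1 and 4 loci, against 1394 and 955 of all features. The array medians were then -0.44 and 0.45 (full-length replicates 1 and 2) and -0.22 and 0.70 (truncated), so the sign followed the dye orientation. With the scanner software's own log ratios, which use another dye normalization, the median was 0.40 and 0.36. There 27 and 22 loci passed as higher, beside 8.15% and 5.62% of all features.

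**Figure D5:**
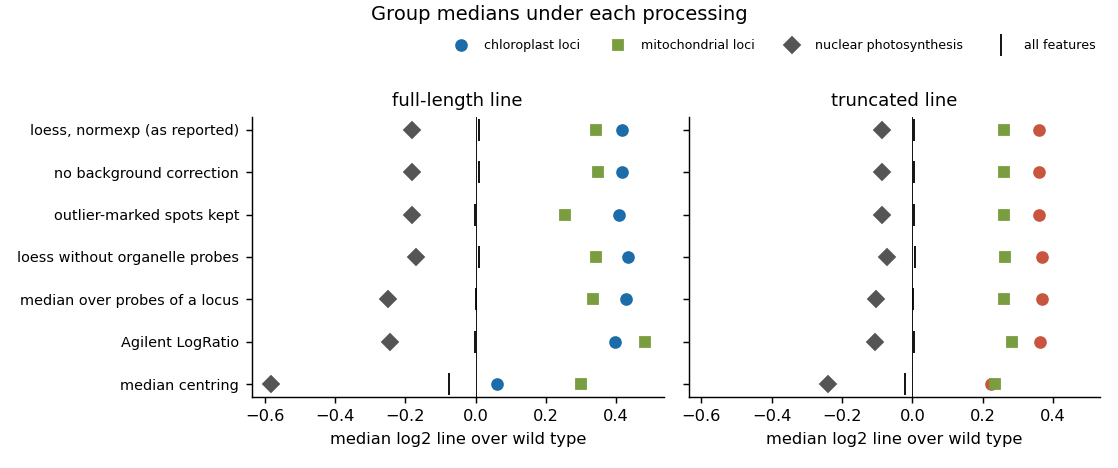
Median log2 ratio of line over wild type for chloroplast loci (circles), mitochondrial loci (squares), nuclear photosynthesis genes (diamonds) and all features (ticks) under 7 processing settings. Chloroplast medians lie between 0.36 and 0.43 except with median centring, where they are 0.062 and 0.22 and the nuclear photosynthesis medians are -0.58 and -0.24.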

How the data were processed

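Per the file headers, the authors scanned 4 arrays of 1 slide with Agilent Feature Extraction 10.7.3.1. The deposited files give median spot and background intensity and a log10 ratio of Cy5 over Cy3. The authors' deposited value table gives line over wild type as log2 (slope 0.995 to 0.998 on the turned log10 column, column medians -0.0711 to 0.04). Here outlier-marked spots (20 to 50 per array) were left out. Background was corrected with normexp (offset 50), ratios were normalized by loess (span 0.3) with control spots at weight 0 and turned to line over wild type, and limma 3.58.1 in R 4.3.3 was fitted to all 22442 features, both lines in 1 fit, with Benjamini-Hochberg adjustment over all of them. A feature was kept where the scanner called it well above background for a line on each of its arrays, or for wild type on all 4. The fit was tested on simulated data with independent noise on each array. That test could not cover deviations shared by same-numbered arrays. The members and lists were chosen with earlier results of these data known. Named were to be loci by symbol and role, which could not be applied, so the highest, lowest and most variable loci are given after their values were seen. Of each nuclear list, up to 3 called genes with the largest ratio are named, and others only to complete small counts. List names without a match in the gene table (PETM, RPOTmp, RNJ, HCF145, MORF2, PER3) were left out. The number of arrays limits the precision.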

Additional observations from a re-analysis of the deposited data

How the results depend on the processing

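The median of each line stayed above 0 under every setting tried, and the median of their difference, which was not called, changed sign. Median centring gave medians of 0.062 (full-length), 0.22 (truncated) and 0.16 (truncated minus full-length). In the full-length and truncated line 0 and 0 loci were then called, beside 8 and 41 of all features. With no filter on dim probes 34127 features were tested and 12 and 10 loci passed as higher, of 2.07% and 1.04% of all features. Agilent's log ratios and the deposited table each gave a truncated median of 0.36 and 22 truncated loci, beside 5.62% of all features called higher. The truncated median was 0.37 with organelle probes left out of the loess curve and 0.37 with the median over probes of a locus. Leaving out each of the 4 arrays in turn gave 22 to 42 called loci and medians of 0.34 to 0.42 in the full-length line, 18 to 41 and 0.36 to 0.40 in the truncated line, and medians of -0.043 to 0.010 for their difference. The highest counts, 42 and 41, came from fits in which the line in question kept both arrays. Of all features 11.6% (full-length) and 8.44% (truncated) were then called higher, against 9.41% and 7.09% with all 4 arrays. The lowest count of each line stood beside its lowest share over all features, as given above. Where a line kept 1 array, it was assumed to vary like the other line. The replicate number is also the dye orientation. Deviations of same-numbered arrays from their line means correlated at 0.775 over all features, from only 2 pairs. With the replicate block in the fit 60 and 59 loci were called higher, where 30.5% and 28.2% of all features were, and 23 differed between the lines (10 up and 13 down, truncated minus full-length), where 39.1% of all features did. The cause of these changes was not tested beyond the smaller or larger sets the settings themselves make.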
